A study of Mus musculus with 12 samples.

Results

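The genes described here are 9 mouse genes of innate-like lymphocytes: the interleukin-23 receptor gene Il23r, the chemokine receptor gene Cxcr6, the T cell receptor gamma constant genes Tcrg-C1, Tcrg-C2 and Tcrg-C4, the cytokine gene Il17a, the transcription factor genes Zbtb16 and Sox13, and the kinase gene Blk. They were chosen by the low levels of Il23r, Cxcr6 and Tcrg-C2 in tumor-draining nodes against healthy nodes, and the other 6 were added as genes of the same kinds of cells. They are 9 of 52355 genes in the table, and 8 of them, all but Il17a, were among the 23729 genes that passed the filter on low counts.

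Sequencing covered 12 libraries of RNA from cells labelled CD11c, taken from inguinal lymph nodes of mice. The 3 groups of 4 libraries were nodes draining a subcutaneous KPC tumor in animals given a CD40 agonist (agonist libraries), nodes draining such a tumor with no agonist (tumor-draining libraries), and nodes of healthy animals with neither (healthy libraries). CD11c is an integrin chain used to enrich dendritic cells, KPC is a usual name for a mouse model of pancreatic cancer, and a CD40 agonist activates a receptor on antigen-presenting cells. The labels give no strain, age, dose, time after treatment, control antibody or purity of the cells, nor whether each library is a separate animal. The p-values therefore reflect variation among these libraries, part of which may be technical.

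The IL-23 receptor is a pair of chains, the product of Il23r and the product of Il12rb1, and its ligand is the p19 subunit (Il23a) joined to the p40 subunit (Il12b). Dendritic cells and macrophages are the main known makers of IL-23. Gamma-delta T cells, group 3 innate lymphoid cells and some invariant T cells carry the receptor and can answer with IL-17A and IL-22. CXCR6 marks many lymphocytes that settle in tissues, and its ligand CXCL16 is made by dendritic cells and macrophages.

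The 3 gamma constant genes lie together on chromosome 13 and encode the part of the gamma chain that does not vary between cells. Their sequences are shown because they set how far the 3 counts can be told apart. The first 90 bases of the first exon of each (GENCODE release M21, GRCm38, 5′ to 3′ on the gene's strand, with capitals at bases that differ from Tcrg-C1) read as follows.
Tcrg-C1 (chr13:19214103-19214192, plus strand): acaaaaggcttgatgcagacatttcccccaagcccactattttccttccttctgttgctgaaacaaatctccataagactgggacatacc
Tcrg-C2 (chr13:19307462-19307551, minus strand): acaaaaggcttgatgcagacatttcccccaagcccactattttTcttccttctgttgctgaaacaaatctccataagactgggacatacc
Tcrg-C4 (chr13:19344558-19344647, plus strand): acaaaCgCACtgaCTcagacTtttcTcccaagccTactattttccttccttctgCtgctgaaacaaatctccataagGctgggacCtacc
In this stretch Tcrg-C2 differed from Tcrg-C1 at 1 base and Tcrg-C4 at 12 bases. Over the aligned transcripts Tcrg-C1 and Tcrg-C2 were 96.2% identical (874 of 909 bases), and Tcrg-C4 was 72.4% identical to Tcrg-C1. Of the stretches of 31 bases in a transcript, 51.0% of those of Tcrg-C1 and 45.9% of those of Tcrg-C2 also occurred in another gamma constant transcript, against 0% for Tcrg-C4. Counts of Tcrg-C1 and Tcrg-C2 are therefore uncertain one against the other, while those of Tcrg-C4 share no such stretch.

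Il23r (ENSMUSG00000049093.9, chromosome 6, 67422932 to 67491855, minus strand) had 1 annotated transcript, and overlapped no other gene. Normalised counts are given in CPM, the counts of a gene relative to the scaled size of its library. Il23r had 8.20, 8.62, 6.82 and 6.87 CPM in agonist replicates 1 to 4, against 2.92, 2.21, 1.83 and 2.32 CPM in tumor-draining replicates and 5.52, 7.06, 4.55 and 4.13 CPM in healthy replicates. Il23r was chosen by its low level in tumor-draining against healthy libraries. Every agonist library was above every tumor-draining library, all tumor-draining libraries were the lowest of the 12, and agonist and healthy libraries overlapped. The counts behind these values were 353, 370, 323 and 314 in agonist libraries, 127, 102, 95 and 102 in tumor-draining libraries and 226, 252, 238 and 198 in healthy libraries.

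Il23r rose in agonist libraries against tumor-draining libraries, with means of 7.62 ± 0.92 and 2.32 ± 0.45 CPM (SD, n = 4 each), a ratio of 3.29. The fitted log2 fold change was 1.72 ± 0.23 (SE), with an adjusted p of 0.00144 in edgeR's quasi-likelihood test, and the level was higher in 4 of 4 pairs of libraries that share a title prefix. Leaving out any 1 of the 12 libraries gave log2 fold changes of 1.62 to 1.84, and the call was kept each time. The tumor-draining libraries took part in the choice of Il23r, Cxcr6 and Tcrg-C2, so that their tests against these libraries, and likewise against the healthy libraries, are not free of that choice.

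Against healthy libraries, whose mean was 5.31 ± 1.30 CPM, the agonist mean of Il23r was 143.5% as high, and this difference did not pass the test (log2 fold change 0.52 ± 0.22 (SE), adjusted p = 0.218, edgeR). With the title prefix as a block the same difference was called (adjusted p = 0.0262, edgeR), and the agonist library was higher in 4 of 4 pairs. The tumor-draining mean was 43.7% of the healthy mean, a fitted log2 difference of -1.19, which is given as a description because this contrast chose the gene. In bulk samples of this kind, fewer cells of a type and less RNA per cell cannot be told apart.

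**Figure D1:**
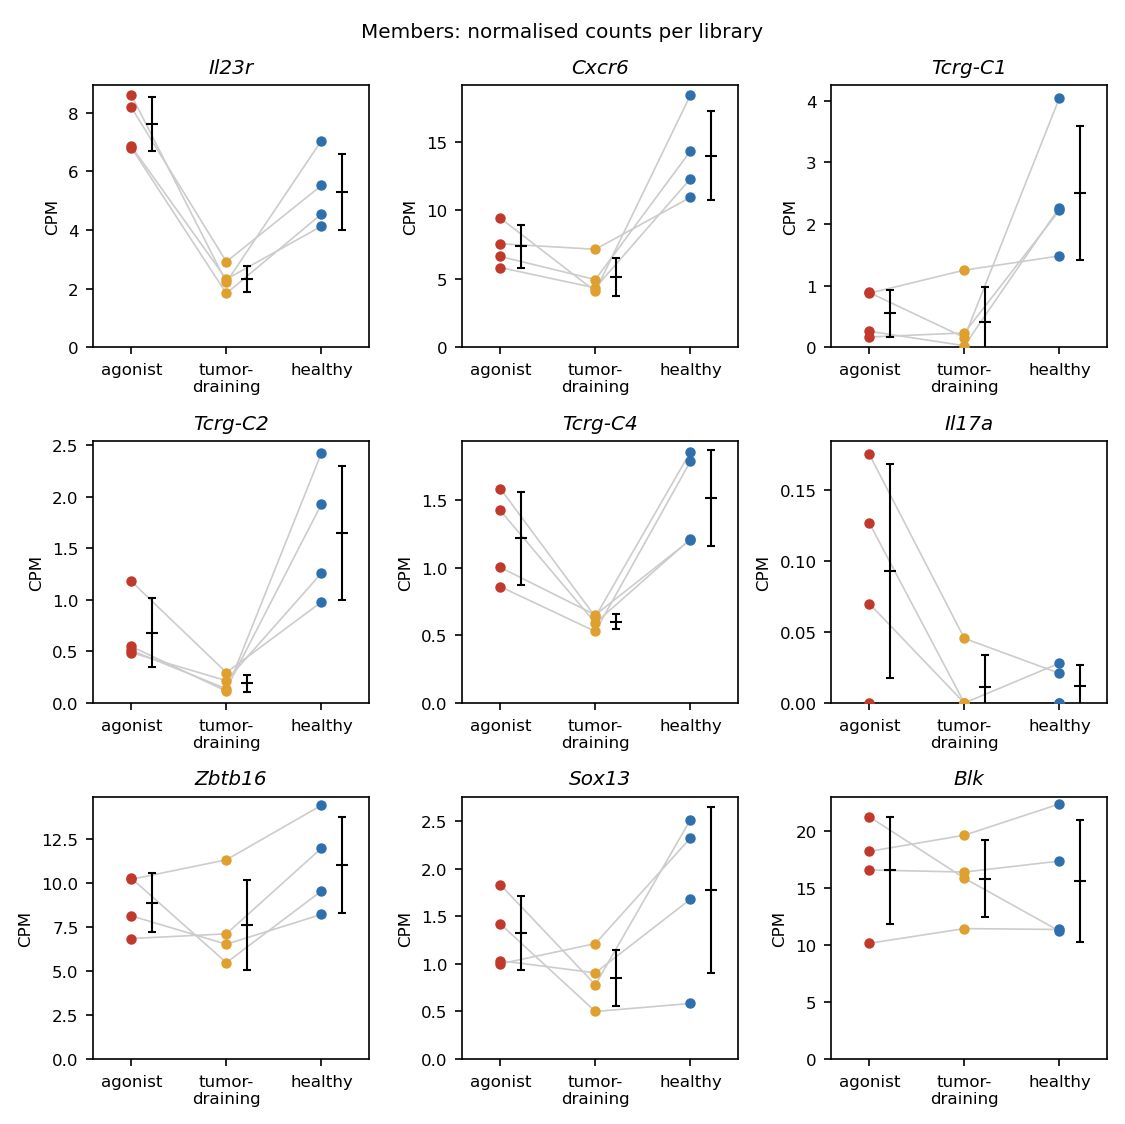
Normalised counts (CPM, linear axes from 0) of the 9 genes in agonist, tumor-draining and healthy libraries; points are libraries, grey lines join libraries with the same title prefix, and bars are the mean ± SD (n = 4). The Il23r values of the agonist group lie from 6.82 to 8.62 CPM, all above the tumor-draining values, while the Cxcr6 values of both tumor-bearing groups lie below all healthy values. Both genes were chosen by their low levels in tumor-draining against healthy libraries.

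Cxcr6 (ENSMUSG00000048521.8, chromosome 9, 123806475 to 123811760, plus strand) lies within the span of Fyco1 on the other strand and shares no exon bases with it. It had 5.80, 6.61, 9.41 and 7.54 CPM in agonist replicates 1 to 4, against 4.32, 4.92, 4.07 and 7.14 CPM in tumor-draining replicates and 12.3, 14.3, 18.4 and 10.9 CPM in healthy replicates. All 8 libraries from tumor-bearing animals lay below the lowest healthy library, and the agonist and tumor-draining libraries overlapped. Cxcr6 was chosen by its low level in tumor-draining against healthy libraries. This separation, and the tests of Cxcr6 against either group, are not free of that choice. Cxcr6 fell in agonist libraries against healthy libraries, with means of 7.34 ± 1.55 and 13.98 ± 3.25 CPM (SD, n = 4 each), 52.5% of the healthy mean (log2 fold change -0.93 ± 0.23 (SE), adjusted p = 0.0239, edgeR).

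The fall of Cxcr6 against healthy libraries was seen in 4 of 4 pairs, and did not pass the threshold when agonist replicate 1, 2 or 4 or healthy replicate 2 or 3 was left out (log2 fold changes of -0.84, -0.89, -0.97, -0.92 and -0.78, adjusted p = 0.0639, 0.0641, 0.0511, 0.0587 and 0.0937 in that order, edgeR). Against tumor-draining libraries (5.11 ± 1.40 CPM) the agonist mean was higher by a log2 fold change of 0.52 ± 0.23 (SE), which did not pass the test (adjusted p = 0.328, edgeR), with higher values in 4 of 4 pairs. The tumor-draining mean was 36.6% of the healthy mean, a log2 difference of -1.45, again a description.

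Over the 8 genes that passed the filter, 2 were called higher in agonist libraries against tumor-draining libraries (Il23r and Tcrg-C2) and 0 lower. Over all 23729 genes tested, 1.85% were called higher and 0.83% lower in that comparison (2.68% either way). Against healthy libraries 0 of the 8 were called higher and 1 lower (Cxcr6), where 4.25% of all genes were called higher and 2.03% lower (6.28% either way). With the title prefix as a block, 3 were called higher and 0 lower against tumor-draining libraries, and 1 higher and 2 lower against healthy libraries, beside 6.74% higher and 6.58% lower (13.3% either way), and 11.7% higher and 8.46% lower (20.1% either way), of all genes. The median log2 fold change of the 8 genes was 0.58 against tumor-draining libraries, beside 0.02 over all genes tested, and -0.37 against healthy libraries, beside -0.03. The genes called without the block, Il23r, Tcrg-C2 and Cxcr6, are those whose levels chose the set. Both comparisons share libraries with that choice, so these counts and medians are not free of it and are a description. Between tumor-draining and healthy libraries, the contrast that chose them, 7 of the 8 had a fitted log2 fold change below 0 and the median was -1.26, beside -0.02 over all genes. In that contrast 0.181% of all genes were called higher and 0.0169% lower (0.198% either way), or 4.02% and 2.28% (6.3% either way) with the title prefix as a block.

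**Figure D2:**
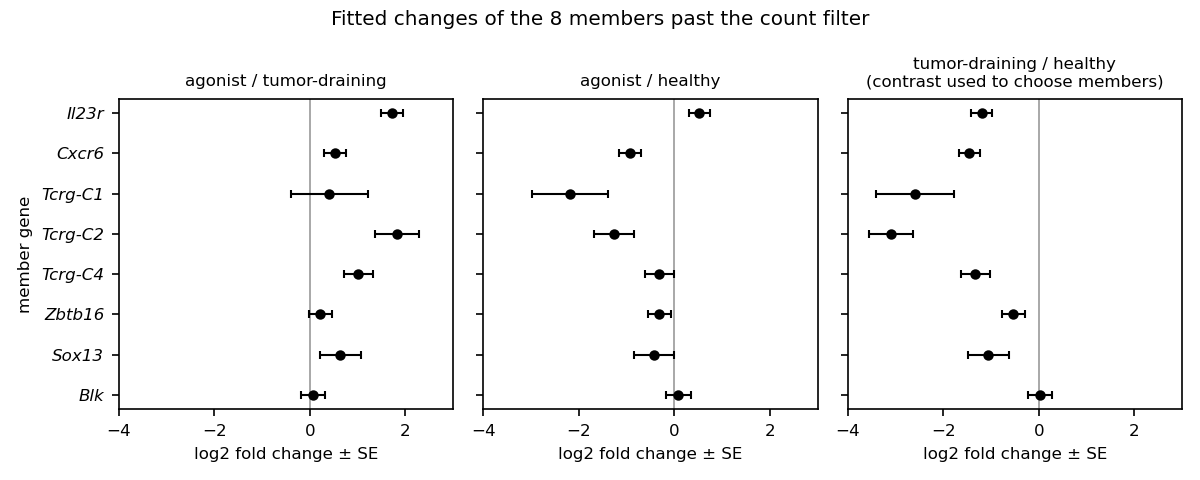
Fitted log2 fold change ± SE (edgeR) of the 8 genes past the count filter, for agonist over tumor-draining, agonist over healthy and tumor-draining over healthy libraries. Il23r stands at 1.72 in the first panel and 0.52 in the second, Cxcr6 at 0.52 and -0.93, and the third panel is the contrast used to choose the genes.

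The gamma constant genes were scarce in all groups. Tcrg-C1 (ENSMUSG00000076749.2) had 0.163, 0.256, 0.886 and 0.875 CPM in agonist replicates 1 to 4, against 0.230, 0.022, 0.154 and 1.25 CPM in tumor-draining replicates and 2.22, 2.27, 4.05 and 1.48 CPM in healthy replicates. All 8 libraries from tumor-bearing animals were below the lowest healthy library, and tumor-draining replicate 4 stood above the other 3 of its group. The difference between agonist and healthy libraries did not pass the test (log2 fold change -2.19 ± 0.80 (SE), adjusted p = 0.145, edgeR), nor did that between agonist and tumor-draining libraries (0.41 ± 0.81 (SE), adjusted p = 0.938, edgeR), which ranged from 0.014 to 1.995 when 1 library was left out and was 1.995 without tumor-draining replicate 4. The first of these was called by DESeq2 (adjusted p = 0.0468), by limma voom (adjusted p = 0.0482), on the deposited TPM (adjusted p = 0.0446, limma) and by edgeR without tumor-draining replicate 4 (adjusted p = 0.0450).

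Tcrg-C2 had 0.511, 0.489, 0.549 and 1.18 CPM in agonist replicates 1 to 4, against 0.138, 0.217, 0.116 and 0.296 CPM in tumor-draining replicates and 1.93, 1.26, 2.43 and 0.980 CPM in healthy replicates. Tcrg-C2 was also chosen by its low level in tumor-draining against healthy libraries. Agonist libraries lay above all tumor-draining libraries without overlap, and overlapped healthy libraries through agonist replicate 4. The rise against tumor-draining libraries passed the test narrowly (log2 fold change 1.83 ± 0.46 (SE), adjusted p = 0.0484, edgeR), and was lost when any 1 of the 12 libraries was left out (adjusted p = 0.0533 to 0.175). The log2 fold change was 0.77 on the deposited TPM with a pseudocount of 0.5, which lowers the changes of scarce genes. Against healthy libraries it was -1.27 ± 0.42 (SE) and did not pass the test (adjusted p = 0.0978, edgeR), and it was called with the title prefix as a block (adjusted p = 0.0316, edgeR) and without agonist replicate 4 (adjusted p = 0.0398, edgeR).

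Tcrg-C4, the gamma constant gene whose reads are least shared, had 0.859, 1.0, 1.58 and 1.42 CPM in agonist replicates 1 to 4, against 0.528, 0.651, 0.636 and 0.591 CPM in tumor-draining replicates and 1.78, 1.20, 1.85 and 1.21 CPM in healthy replicates. The 4 tumor-draining libraries lay close together, below every library of both other groups, which overlapped each other. The higher level of agonist over tumor-draining libraries did not pass the test (log2 fold change 1.01 ± 0.31 (SE), adjusted p = 0.112, edgeR), and was called with the title prefix as a block (adjusted p = 0.0227, edgeR) and by DESeq2 (adjusted p = 0.0432). Agonist and healthy libraries differed by -0.31 on the log2 scale (adjusted p = 0.701, edgeR).

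Because the split of reads between Tcrg-C1 and Tcrg-C2 is uncertain, the gamma constant genes, Tcrg-C3 included, were also summed, a choice made after seeing the data. The sum was 1.55, 1.75, 3.02 and 3.56 CPM in agonist replicates 1 to 4, against 0.919, 0.889, 0.925 and 2.16 CPM in tumor-draining replicates and 5.94, 4.76, 8.37 and 3.73 CPM in healthy replicates. Every healthy library was above every library from a tumor-bearing animal. The sum includes Tcrg-C2, which was chosen by its low tumor-draining level, so this separation is not free of that choice. Neither agonist difference passed the test: the log2 fold change was 1.02 ± 0.38 (SE) against tumor-draining libraries (adjusted p = 0.233, edgeR) and -1.20 against healthy libraries (adjusted p = 0.0786, edgeR). The second was called with the title prefix as a block (adjusted p = 0.0181, edgeR).

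Il17a, the cytokine that gives type 17 cells their name, was at the edge of detection. It had 0, 3, 6 and 8 counts in agonist replicates 1 to 4, against 0, 0, 0 and 2 counts in tumor-draining replicates and 0, 1, 0 and 1 count in healthy replicates. The sums were 17, 2 and 2 counts in that order, and the agonist group also held a library with 0. The difference did not pass an exact permutation test of the CPM (two-sided p = 0.143 against either group, where the smallest p that 4 against 4 libraries can give is 0.0286).

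Zbtb16, which encodes PLZF, the factor that sets the program of invariant and other innate-like T cells, had 10.2, 6.85, 10.3 and 8.14 CPM in agonist replicates 1 to 4, against 11.3, 7.11, 5.48 and 6.52 CPM in tumor-draining replicates and 14.4, 11.98, 9.55 and 8.22 CPM in healthy replicates. The 3 groups overlapped, and the agonist libraries passed the test neither against tumor-draining libraries (log2 fold change 0.22, adjusted p = 0.840, edgeR) nor against healthy libraries (-0.32, adjusted p = 0.611, edgeR). Sox13, a factor of the IL-17-making gamma-delta lineage, had 1.83, 1.0, 1.03 and 1.42 CPM in agonist replicates, against 0.781, 1.21, 0.906 and 0.50 CPM in tumor-draining replicates and 2.52, 2.32, 1.68 and 0.584 CPM in healthy replicates. Its groups overlapped too, with log2 fold changes of 0.63 (adjusted p = 0.644, edgeR) and -0.42 (adjusted p = 0.718, edgeR) for agonist against tumor-draining and healthy libraries.

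Blk, a Src family kinase of B cells that the same gamma-delta lineage uses, had 10.2, 16.6, 18.2 and 21.2 CPM in agonist replicates 1 to 4, against 11.4, 16.4, 19.6 and 15.9 CPM in tumor-draining replicates and 11.4, 17.4, 22.4 and 11.2 CPM in healthy replicates. The 3 groups covered the same range. Its log2 fold changes were 0.06 (adjusted p = 0.978, edgeR) and 0.09 (adjusted p = 0.918, edgeR), and both signs turned on the deposited TPM, as did the second with library totals in place of TMM. The 12 B cell markers listed summed to at least 456.9 CPM in every library, and their part in the level of Blk was not tested.

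On a scale per transcript length, the deposited TPM, Il23r stood at 2.51 ± 0.32 TPM in agonist libraries, with higher means only for Blk (5.67 ± 1.94 TPM) and Cxcr6 (3.22 ± 0.81 TPM) among the 9 genes. Il23r overlapped both there. In tumor-draining libraries Il23r stood at 0.76 ± 0.11 TPM, below Blk (5.55 ± 1.42 TPM), Cxcr6 (2.25 ± 0.64 TPM) and Zbtb16 (1.48 ± 0.47 TPM), and overlapped Tcrg-C4 (0.60 ± 0.09 TPM). In healthy libraries Cxcr6 (6.35 ± 1.58 TPM) and Blk (5.67 ± 1.99 TPM) had the highest means and overlapped each other, and Tcrg-C1 (2.72 ± 1.16 TPM), Zbtb16 (2.27 ± 0.61 TPM), Il23r (1.83 ± 0.56 TPM), Tcrg-C2 (1.82 ± 0.65 TPM) and Tcrg-C4 (1.54 ± 0.28 TPM) had lower means and overlapped each other, with the highest Tcrg-C1 library (4.32 TPM) within the range of Blk (SD, n = 4 throughout).

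The ratio of Il23r to 4 other measures of the same library was computed after the levels had been seen and is given as a description, with no test. The log2 ratio of Il23r to Cxcr6 was 0.07 ± 0.45 in agonist libraries, -1.12 ± 0.43 in tumor-draining libraries and -1.40 ± 0.44 in healthy libraries (SD, n = 4 each). The lowest agonist ratio, -0.47, was above the highest of either other group. The difference of means was 1.19 against tumor-draining and 1.47 against healthy libraries.

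Relative to the summed gamma constant genes, the log2 ratio of Il23r was 1.71 ± 0.75 in agonist libraries, 1.02 ± 0.67 in tumor-draining libraries and -0.07 ± 0.61 in healthy libraries. The agonist ratios lay above all healthy ones, with a difference of means of 1.77, and overlapped the tumor-draining ones, with a difference of 0.69. Relative to Trdc, the T cell receptor delta constant gene, the agonist ratio of 2.03 ± 0.69 differed from the tumor-draining ratio of 0.41 ± 0.81 by 1.62, with overlap, and from the healthy ratio of 0.16 ± 0.61 by 1.87, without overlap. Relative to Cd3e, a chain of the T cell receptor complex of all T cells, the agonist ratio of 1.60 ± 0.38 overlapped neither the tumor-draining ratio of -0.18 ± 0.99 nor the healthy ratio of -0.03 ± 0.71.

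**Figure D3:**
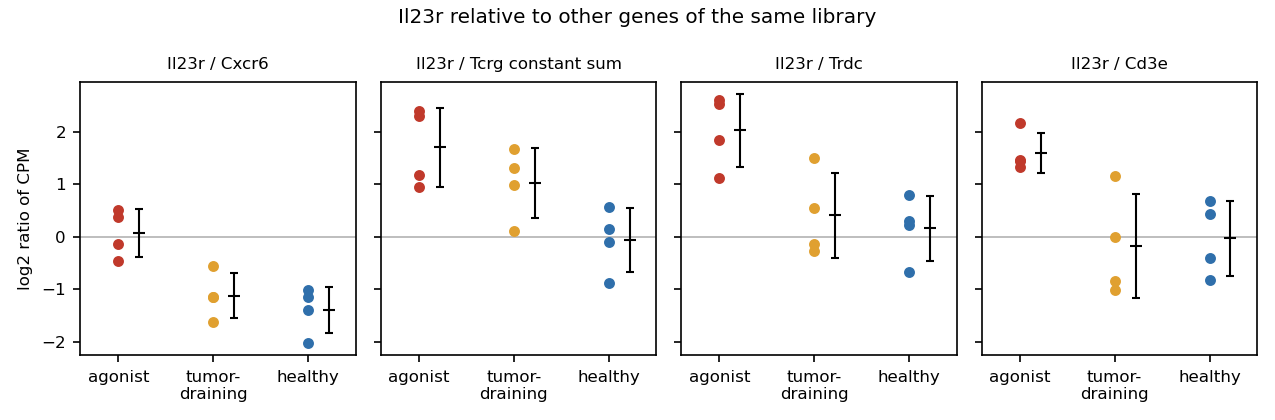
Log2 ratio of the CPM of Il23r to that of Cxcr6, the summed gamma constant genes, Trdc and Cd3e within each library, for agonist, tumor-draining and healthy libraries; points are libraries and bars the mean ± SD (n = 4). The agonist ratio to Cxcr6 averages 0.07, against -1.12 in tumor-draining and -1.40 in healthy libraries, without overlap.

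Of the 27 other genes listed for the IL-23 and type 17 pathway, 26 were tested, and 5 rose and 0 fell in agonist libraries against tumor-draining libraries (Il12b, Il12rb1, Il21r, Il6 and Stat4). The list's median log2 fold change was 0.13, beside 0.02 over all genes. With the title prefix as a block the counts were 7 and 6. Over all genes, 1.85% were called higher and 0.83% lower in this comparison, or 6.74% and 6.58% with the block. Il12rb1, the partner chain of the receptor, was among the 5 listed genes that rose. It had 7.48, 5.85, 9.54 and 8.83 CPM in agonist replicates 1 to 4, against 2.23, 2.41, 3.51 and 3.25 CPM in tumor-draining replicates and 3.18, 3.14, 4.28 and 5.03 CPM in healthy replicates. The agonist libraries lay above all libraries of both other groups. The log2 fold change was 1.48 ± 0.24 (SE) against tumor-draining libraries (adjusted p = 0.0057, edgeR) and 1.02 against healthy libraries (adjusted p = 0.0200, edgeR). Between tumor-draining and healthy libraries Il12rb1 was not called (log2 fold change -0.46, adjusted p = 0.689, edgeR). Whether Il12rb1 and Il23r rose in the same cells was not tested.

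Il12b, the p40 subunit shared by IL-12 and IL-23, averaged 70.7 ± 15.8 CPM in agonist libraries, 39.0 ± 7.2 CPM in tumor-draining libraries and 34.4 ± 8.5 CPM in healthy libraries, and rose against tumor-draining libraries (log2 fold change 0.86, adjusted p = 0.0340, edgeR). Il23a, the subunit particular to IL-23, was scarce at 0.71 ± 0.30, 0.35 ± 0.08 and 0.35 ± 0.12 CPM in the same order, and its log2 fold change of 1.01 did not pass (adjusted p = 0.321, edgeR). Il6, a cytokine that drives type 17 differentiation, rose to 4.43 ± 1.44 CPM in agonist libraries, against 0.72 ± 0.18 CPM in tumor-draining libraries (log2 fold change 2.61, adjusted p = 0.0018, edgeR).

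Il21r, a receptor chain, rose by a log2 fold change of 0.91 (adjusted p = 0.0060, edgeR) and Stat4, a factor downstream of IL-12 and IL-23, by 0.85 (adjusted p = 0.0226, edgeR) between the same groups.

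Against healthy libraries, 7 of the 26 pathway genes rose in agonist libraries and 1 fell, beside 4.25% higher and 2.03% lower of all genes. The list's median log2 fold change was 0.17, beside -0.03 over all genes. Ccr6, a chemokine receptor of type 17 cells and also of B cells, was among those that rose, with 16.8 ± 3.7 CPM in agonist and 6.30 ± 1.06 CPM in healthy libraries (adjusted p = 0.0019, edgeR). Between tumor-draining and healthy libraries edgeR called 0 of the 26 genes, with 6 at an unadjusted p under 0.05, and 5 were called by DESeq2, 0 by limma voom and 7 with the title prefix as a block. The share of all genes called there was 0.198%, or 6.3% with the block. Ccr6 (log2 fold change 1.13, adjusted p = 0.0591, edgeR) missed the threshold there and was called with the block (adjusted p = 0.0014, edgeR). Il17re, a receptor chain for IL-17C, was called with the block too (log2 fold change -1.09, adjusted p = 0.0153, edgeR).

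**Figure D4:**
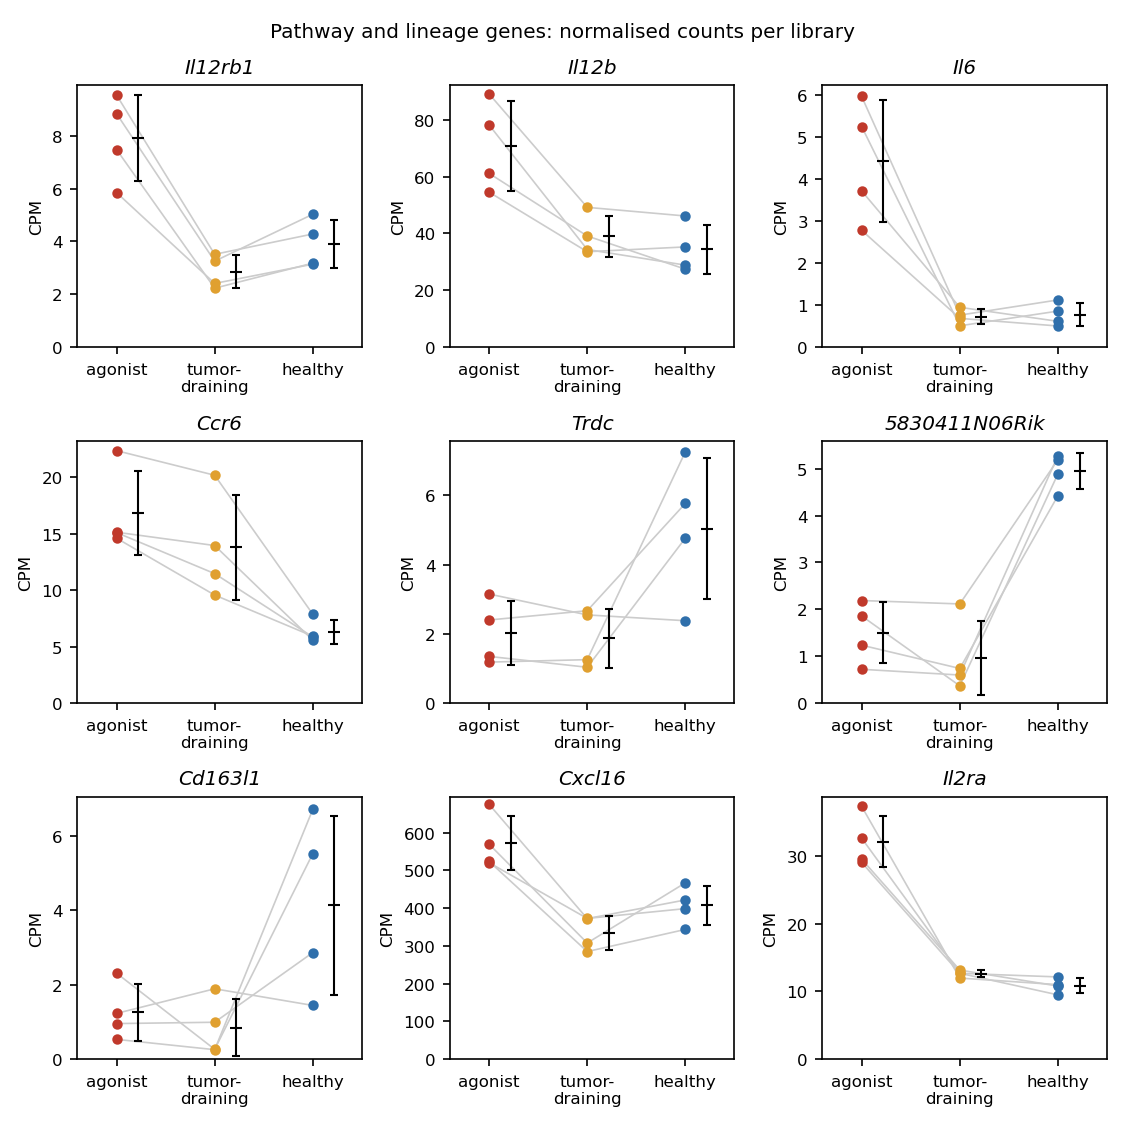
Normalised counts (CPM, linear axes from 0) of 9 pathway and lineage genes in agonist, tumor-draining and healthy libraries; points are libraries, grey lines join libraries with the same title prefix, and bars are the mean ± SD (n = 4). Il12rb1 is highest in agonist libraries at 7.92 ± 1.63 CPM, and Ccr6 is higher in agonist (16.8 CPM on average) than in healthy libraries (6.30 CPM).

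Of 24 other gamma-delta T cell genes listed, 23 were in the table and 14 were tested. Against tumor-draining libraries 0 rose and 1 fell in agonist libraries, the monocyte and lymphocyte chemokine receptor gene Ccr2 (log2 fold change -1.46, adjusted p = 0.00076, edgeR), and the list's median was 0.10. Against healthy libraries 1 rose (Etv5) and 3 fell (5830411N06Rik and Ccr2 among them), with a median of -0.62, and 7 fell with the title prefix as a block. Ccr2 averaged 132.0, 363.3 and 389.6 CPM in agonist, tumor-draining and healthy libraries, and Etv5 75.7, 49.9 and 41.1 CPM. Trdc averaged only 2.02, 1.88 and 5.04 CPM in the same order. Which cells the levels of Ccr2 and Etv5 came from was not tested. The shares of all genes called lower were 0.83% against tumor-draining and 2.03% against healthy libraries, or 6.58% and 8.46% with the block. Between tumor-draining and healthy libraries edgeR called 0 of the 14, with 7 at an unadjusted p under 0.05, and the median was -0.56. DESeq2 called 3 lower, limma voom 0, and the fit with the title prefix as a block 5 lower (5830411N06Rik, Egr3, Il18r1 and Lmo4 among them), beside 2.28% of all genes called lower with the block.

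Trdc averaged 2.02 ± 0.93 CPM in agonist libraries, 1.88 ± 0.85 CPM in tumor-draining libraries and 5.04 ± 2.05 CPM in healthy libraries, and no comparison of it passed (adjusted p = 0.978 for agonist against tumor-draining, 0.0888 for agonist against healthy and 0.270 for tumor-draining against healthy, edgeR). 5830411N06Rik, a gene related to the scavenger receptor gene Cd163l1, averaged 1.499 ± 0.653 CPM in agonist libraries, 0.95 ± 0.79 CPM in tumor-draining libraries and 4.95 ± 0.39 CPM in healthy libraries. It fell in agonist against healthy libraries (log2 fold change -1.72, adjusted p = 0.0416, edgeR). Cd163l1, known in mouse as SCART1 of gamma-delta T cells, averaged 1.25 ± 0.76, 0.85 ± 0.77 and 4.13 ± 2.41 CPM in agonist, tumor-draining and healthy libraries. It passed in none of the comparisons by edgeR (adjusted p = 0.257 for tumor-draining against healthy libraries), and DESeq2 called it lower in that one. The variable gene Tcrg-V4 had 11, 21 and 72 summed counts and Tcrg-V6 had 12, 6 and 34 in the same order, too few for the test.

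Of 34 other innate lymphoid and invariant T cell genes, 29 were tested. Against tumor-draining libraries 3 rose in agonist libraries and 0 fell, with a median log2 fold change of 0.18. These were Il2ra, the IL-2 receptor alpha chain (32.1 ± 3.8 CPM in agonist and 12.6 ± 0.5 CPM in tumor-draining libraries, adjusted p = 0.00023, edgeR), Cd1d1, the molecule that presents lipids to invariant T cells (log2 fold change 0.84, adjusted p = 0.0070, edgeR), and Ifng (2.61 ± 0.96 CPM and 0.47 ± 0.18 CPM, adjusted p = 0.0171, edgeR). Both Il2ra and Cd1d1 are also expressed by dendritic cells. Against healthy libraries 7 rose and 2 fell, and between tumor-draining and healthy libraries edgeR called 0, with 12 at an unadjusted p under 0.05, beside 2 by DESeq2 and 0 by limma voom. With the title prefix as a block 7 rose and 2 fell in agonist against tumor-draining, 9 rose and 4 fell in agonist against healthy, and 5 rose and 2 fell in tumor-draining against healthy libraries. In that order 6.74% of all genes rose and 6.58% fell, 11.7% and 8.46%, and 4.02% and 2.28% with the block. Without it the shares were 1.85% and 0.83%, 4.25% and 2.03%, and 0.181% and 0.0169%.

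Of 18 other genes of the CXCR6 axis and of tissue residency, all tested, 2 rose and 0 fell in agonist against tumor-draining libraries, with a median log2 fold change of 0.00 on the edgeR fit. Cxcl16, the ligand of CXCR6, had 520.7, 569.7, 524.1 and 675.4 CPM in agonist replicates 1 to 4, against 372.9, 307.7, 285.0 and 372.4 CPM in tumor-draining replicates and 398.9, 467.3, 343.7 and 421.9 CPM in healthy replicates. Agonist libraries were above all others, and the ligand rose against tumor-draining libraries (log2 fold change 0.78 ± 0.15 (SE), adjusted p = 0.0115, edgeR). The receptor gene Cxcr6 had a change in the same direction (0.52 ± 0.23 (SE)) that was not called (adjusted p = 0.328, edgeR). Against healthy libraries Cxcl16 was not called (adjusted p = 0.0669, edgeR) and was called with the title prefix as a block (adjusted p = 0.0031, edgeR). The other gene that rose was Ccr7, the receptor that leads dendritic cells and naive T cells into lymph nodes (log2 fold change 1.69, adjusted p = 0.0014, edgeR). Against healthy libraries 2 rose (Ccl20 and Ccr7) and 1 fell (Itga1), and between tumor-draining and healthy libraries edgeR called 0, with 3 at an unadjusted p under 0.05 and 0 by either DESeq2 or limma voom. With the title prefix as a block the counts of this list were 3 higher and 3 lower, 7 higher and 5 lower, and 2 higher and 0 lower in the same order of comparisons. The shares of all genes with the block were 6.74% and 6.58%, 11.7% and 8.46%, and 4.02% and 2.28%. Without it they were 1.85% and 0.83%, 4.25% and 2.03%, and 0.181% and 0.0169%.

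Levels of markers of other cells stand beside these values. The summed level of 18 conventional T cell markers was lowest, median and highest at 258.1, 483.8 and 608.9 CPM in agonist libraries, 375.7, 622.1 and 928.0 CPM in tumor-draining libraries and 537.2, 788.7 and 907.4 CPM in healthy libraries. Of these 18 genes, 0 were called in agonist against tumor-draining libraries by edgeR (3 at an unadjusted p under 0.05, 2 lower by DESeq2, 0 by limma voom), and 7 fell in agonist against healthy libraries (Bcl11b, Cd3d, Cd3g, Cd8a, Lef1, Themis and Trbc2). Between tumor-draining and healthy libraries edgeR called 0 of them (9 at an unadjusted p under 0.05, 0 by either DESeq2 or limma voom), and with the title prefix as a block 3, 16 and 9 fell in agonist against tumor-draining, agonist against healthy and tumor-draining against healthy libraries. In that order 6.58%, 8.46% and 2.28% of all genes were called lower with the block, and 0.83%, 2.03% and 0.0169% without it. Most of the summed level was Cd4 and Cd8a, which dendritic cells also express: Cd4 averaged 214.8 CPM in agonist, 233.0 CPM in tumor-draining and 217.6 CPM in healthy libraries, and Cd8a 110.2, 237.1 and 291.1 CPM in the same order. Between agonist and tumor-draining libraries the T cell receptor genes Cd3d (4.42 ± 1.33 and 4.58 ± 1.02 CPM), Cd3e (2.54 ± 0.44 and 2.95 ± 1.62 CPM) and Trbc2 (13.6 ± 3.6 and 15.9 ± 8.1 CPM) differed by less than their spread. Their healthy means were 8.31, 5.53 and 30.96 CPM. In the whole list 16 of 18 genes had a log2 fold change below 0 in agonist against tumor-draining libraries, with a median of -0.24. Those with the smallest p, Cd8a (-1.11), Cd5 (-0.93) and Cd6 (-1.06), were called lower with the block. The part of T cell number in the levels of Il23r, Cxcr6 and the gamma constant genes was not tested.

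Of 12 natural killer cell markers, 2 rose (Gzma and Gzmb) and 1 fell (Klrd1) in agonist against tumor-draining libraries. The list's median log2 fold change there was 0.58, beside 0.02 over all genes, with 2 of the 12 below 0. In tumor-draining against healthy libraries the median was -0.60, beside -0.02 over all genes, with 10 of the 12 below 0. EdgeR called 0 of the 12 there, beside 0.198% of all genes. The markers' summed level ranged over 130.8 to 234.7 CPM in agonist, 136.7 to 176.3 CPM in tumor-draining and 137.6 to 200.9 CPM in healthy libraries. Much of this sum was Klrk1 (78.5, 81.5 and 82.4 CPM on average in that order) and Klrd1 (18.1, 39.8 and 32.9 CPM). Ncr1, a receptor of natural killer and some innate lymphoid cells, averaged 11.9 ± 5.7, 5.69 ± 1.78 and 9.83 ± 2.93 CPM in that order, with no call between agonist and tumor-draining libraries (adjusted p = 0.122, edgeR) and a call with the title prefix as a block (adjusted p = 0.0104, edgeR). The 12 B cell markers summed to 532.9 to 917.3 CPM in agonist, 571.3 to 906.9 CPM in tumor-draining and 456.9 to 789.0 CPM in healthy libraries, with 1 called higher (Fcer2a) in agonist against tumor-draining libraries. With the block 6 natural killer cell markers rose and 1 fell, and 3 B cell markers rose and 2 fell, in that comparison. Over all genes, 1.85% were called higher and 0.83% lower there, or 6.74% and 6.58% with the block.

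The labelled cell type was checked against its own markers. Itgax, the gene of CD11c, averaged 731 ± 130 CPM in agonist, 968 ± 188 CPM in tumor-draining and 832 ± 209 CPM in healthy libraries. The 16 dendritic cell markers summed to 19300 to 27580 CPM in agonist, 27370 to 43930 CPM in tumor-draining and 26920 to 42790 CPM in healthy libraries, of which 1 rose (Ccr7) and 3 fell (Cd209a, Clec10a and Clec9a) in agonist against tumor-draining libraries, or 2 and 11 with the block. Most of this sum was Cd74 (9904, 15240 and 16030 CPM on average in agonist, tumor-draining and healthy libraries), H2-Aa (5076, 7747 and 8147 CPM) and H2-Ab1 (3843, 5959 and 6365 CPM). The sum therefore mainly follows these genes and is no measure of the purity of the cells. Of 8 neutrophil markers, 7 were tested and 0 were called in that comparison by edgeR, DESeq2 or limma voom (0 at an unadjusted p under 0.05 in edgeR), while in tumor-draining against healthy libraries edgeR called Csf3r higher, with 4 of the 7 higher by DESeq2 and 0 by limma voom. Over all genes, 1.85% rose and 0.83% fell in agonist against tumor-draining libraries, or 6.74% and 6.58% with the block. In tumor-draining against healthy libraries edgeR called 0.181% of all genes higher. Library totals ranged from 32626784 to 56320661 counts over the 12 libraries.

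**Figure D5:**
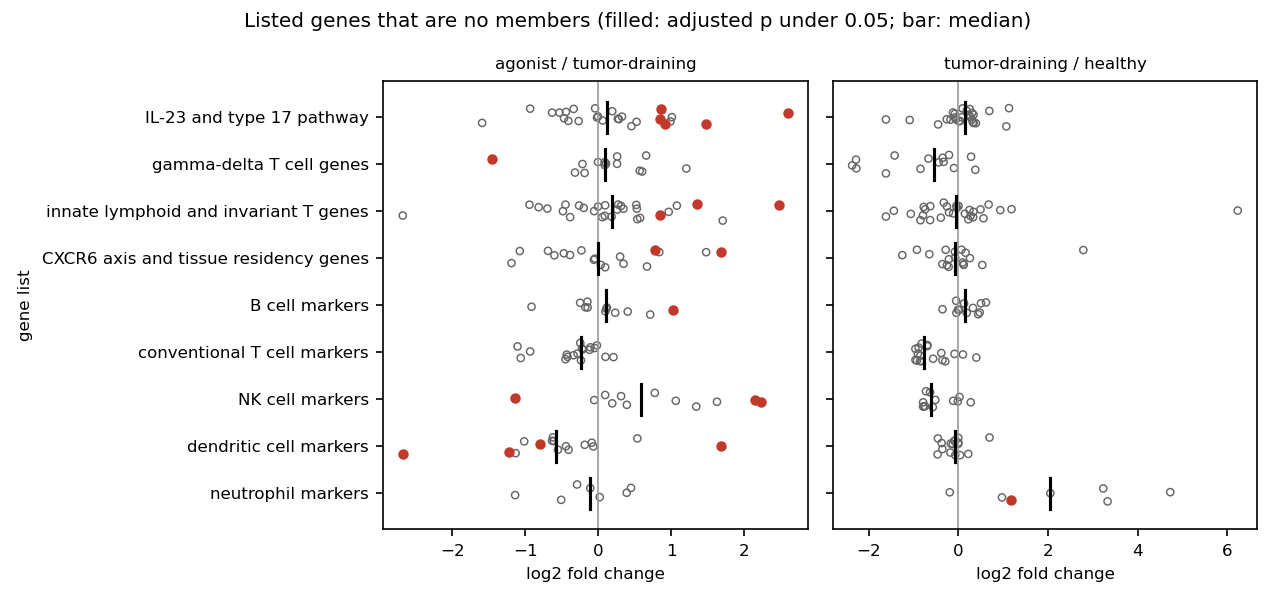
Fitted log2 fold changes (edgeR) of the listed genes that passed the count filter, by list, for agonist over tumor-draining and tumor-draining over healthy libraries; points are genes, filled where the adjusted p was under 0.05, and the bar is the median. In the left panel 5 pathway genes are filled on the higher side, and the conventional T cell markers have a median of -0.24 there and -0.76 in the right panel.

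The promoters of the 2 receptor genes, 250 bases before to 50 after the start (RefSeq, GRCm38.p6, 5′ to 3′ on the gene's strand), are shown as a description. Whether their letters bear on the levels of the genes was not tested. Capitals mark the letters AGGTCA, a core shared by the sites of many nuclear receptors, or TGACCT, the same letters on the other strand.
Il23r (chr6:67491806-67492105, minus strand): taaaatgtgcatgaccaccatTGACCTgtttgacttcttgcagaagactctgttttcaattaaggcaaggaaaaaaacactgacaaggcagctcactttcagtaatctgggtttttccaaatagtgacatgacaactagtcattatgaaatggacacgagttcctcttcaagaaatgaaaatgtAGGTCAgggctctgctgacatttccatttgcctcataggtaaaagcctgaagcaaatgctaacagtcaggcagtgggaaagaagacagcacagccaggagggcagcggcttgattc
Cxcr6 (chr9:123806227-123806526, plus strand): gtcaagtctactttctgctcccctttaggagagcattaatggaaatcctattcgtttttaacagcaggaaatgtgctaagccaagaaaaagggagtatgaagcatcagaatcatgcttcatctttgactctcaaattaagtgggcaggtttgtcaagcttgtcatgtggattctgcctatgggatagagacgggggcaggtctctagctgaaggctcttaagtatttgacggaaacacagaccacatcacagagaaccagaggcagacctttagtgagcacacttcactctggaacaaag
Il23r held 2 matches and Cxcr6 0, and at least 1 match was present in 16.3% of 32851 promoters of this length. Promoters were found for 4 of the 9 genes. Of the others, Il17a held 1 match, and Sox13 held 1 match to TTCNNNGAA, the letters bound by STAT factors, which 8.3% of promoters hold. Both strands were searched, a match is a description of the letters, and no match says only that they are not in this window.

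The genes whose levels ran most like those of 3 members were found by Pearson's r of log2 CPM over the 12 libraries, after the mean of each title prefix had been subtracted, among 13138 genes. For Il23r they were Nmnat3 (r = 0.98), Slc27a3 (0.97), Malat1 (0.96), Parp4 (0.95) and Tango2 (0.95). Slc27a3 averaged 34.6 ± 12.5 CPM in agonist, 14.0 ± 6.4 CPM in tumor-draining and 23.3 ± 5.8 CPM in healthy libraries, the same order of groups as Il23r. For Cxcr6 they were 5830411N06Rik (0.98), Acss3 (0.97), Kcnq3 (0.97), Il18r1 (0.96) and Arnt2 (0.96). For Tcrg-C2 they were Il17re (0.97), Chmp4c (0.97), Peg13 (0.96), Kcnq3 (0.95) and Bcas3os1 (0.95). These values rank genes over libraries of 3 groups and describe these 12 libraries only.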

How the data were processed

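RNA of CD11c cells was measured in 12 libraries, 4 per group, grouped by their titles. Per the labels' protocols, libraries were made with a kit that keeps the strand. The deposited estimated counts and the deposited TPM are per transcript. The submitters' processing notes name Salmon and mm10, while the deposited values carry the name sailfish. Which of these programs made the values was not settled. The program's version and the annotation are not stated in the labels. Of 132374 transcripts, 131974 were matched to GENCODE release M21 and summed to 52355 genes, rounded. The 400 left out held 0.116% to 0.148% of a library's counts.

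All 12 libraries entered 1 fit in edgeR 4.0.16 (R 4.3.3) with TMM scaling, a minimum count of 10 (filterByExpr), robust quasi-likelihood F tests with group as the only term, 9 residual degrees of freedom, and calls at a Benjamini-Hochberg adjusted p under 0.05 over 23729 genes. The test was tried on simulated data with known changes. CPM used TMM-scaled library sizes, and SE was the size of the log2 fold change over the square root of F. The title prefix gave the replicate number. Deviations from group means correlated at 0.204 to 0.473 in the 12 same-prefix pairs of libraries and at -0.45 to 0.333 in 36 others. The prefix therefore pairs them, and an edgeR fit blocked on it (6 residual degrees of freedom) was an alternative. The main fit leaves this pairing out. Its common coefficient of variation between libraries was 33.9%, against 20.7% with the block. A difference that the main fit did not call is therefore no evidence that the groups are equal. Other alternatives were DESeq2 1.42.0, limma 3.58.1 (voom, and log2(TPM + 0.5)), other scalings, no filter and leaving out each library. Of the 9 members, Il17a was tested by exact permutation in SciPy 1.17.1 only.

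The members and lists were chosen with earlier results of these data known. Every member is named in every comparison, as are, per list, up to 4 genes with the smallest p in agonist against tumor-draining and up to 3 in tumor-draining against healthy libraries, a set of 15 fixed genes, and the 5 genes most like Il23r, Cxcr6 and Tcrg-C2. Not every gene of that rule is described, and some are not reported here. Counts limit precision: intervals and errors of scarce genes cover the spread between libraries only.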

Additional observations from a re-analysis of the deposited data

Results flagged for a closer look

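In 3 of the 27 combinations of a gene and a group, 1 of the 4 libraries stood far from the other 3 by Dixon's ratio of its gap to the whole range, past its 95% critical value. Chance gives about 1 in 20. Agonist replicate 4 was the highest of its group for Tcrg-C2 at 1.181 CPM (ratio 0.914). Tumor-draining replicate 4 was the highest of its group for Tcrg-C1 at 1.25 CPM (ratio 0.831), and for Il17a at 0.0455 CPM, where it was the only library of that group with a count. With the rest of that group at 0 the ratio is 1 whatever the count. The Il17a flag is therefore fixed in advance, and the chance rate does not apply to it.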

How the results depend on the processing

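Of the settings tried, Il23r in agonist against tumor-draining libraries kept its direction and its call in all. The replicate block (title prefix) gave 3161 calls in agonist against tumor-draining, 4781 in agonist against healthy and 1495 in tumor-draining against healthy libraries, against 635, 1490 and 47 without it. With it, listed genes called in any comparison numbered 18 for the IL-23 pathway, 8 for gamma-delta, 18 for innate lymphoid, 12 for CXCR6 axis, 6 for B cell, 16 for T cell, 7 for natural killer, 15 for dendritic and 5 for neutrophil lists, against 8, 4, 9, 4, 3, 7, 3, 7 and 3. It newly called Tcrg-C4 against tumor-draining (0.99), and Il23r (0.54) and Tcrg-C2 (-1.345) against healthy libraries, and changed no other call of a member in the 2 agonist comparisons. DESeq2 gave 1186 and 368 calls (against tumor-draining, and tumor-draining against healthy), 11 T cell, 6 natural killer and 5 neutrophil genes, and called Tcrg-C4 (0.99) against tumor-draining and Tcrg-C1 (-2.185) against healthy libraries. DESeq2 size factors gave 0 B cell and 4 T cell genes and lost Tcrg-C2 against tumor-draining libraries (1.80). Library totals shifted the median of all genes in agonist against healthy libraries to -0.11, gave 11 dendritic genes, turned Blk to -0.000032 there and to -0.038 in tumor-draining against healthy libraries, and gave 496 higher and 424 lower calls against tumor-draining and 941 and 798 in agonist against healthy libraries, against 438 and 197, and 1009 and 481. No filter gave 75 calls in tumor-draining against healthy libraries, 2 T cell genes and no Tcrg-C2 call (1.80). Limma voom gave 1 call there, lost Tcrg-C2 (1.78) and called Tcrg-C1 against healthy libraries (-2.415). Deposited TPM gave 284, 815 and 16 calls, 5 innate lymphoid, 1 CXCR6 axis, 0 B cell, 2 T cell and 0 neutrophil genes, lost Tcrg-C2 (0.77) and Cxcr6 against healthy libraries (-0.88), called Tcrg-C1 (-1.59), and turned Blk to -0.0048, -0.0088 and -0.0041 in the 3 comparisons. The cause of these changes was not tested.

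Leaving out 1 library gave 323 to 547, 829 to 1535 and 0 to 101 calls in the 3 comparisons. Listed genes called ranged from 2 to 5 (gamma-delta), 5 to 11 (innate lymphoid), 1 to 4 (CXCR6 axis), 0 to 3 (B cell), 0 to 8 (T cell). Log2 fold changes ranged from 1.41 to 2.10 for Tcrg-C2, 0.014 to 1.995 for Tcrg-C1 and from -0.097 to 0.24 for Blk against tumor-draining libraries, and from -1.07 to -0.78 for Cxcr6, -2.53 to -1.86 for Tcrg-C1, -1.70 to -1.03 for Tcrg-C2 and -0.083 to 0.31 for Blk in agonist against healthy libraries. In tumor-draining against healthy libraries Blk ranged from -0.11 to 0.25. Depth limits Il17a and the gamma constant genes, which had few reads.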

Other observations

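Il22, which encodes the other main cytokine of IL-23-responsive lymphocytes, had 0, 9, 12 and 2 counts in agonist replicates 1 to 4, against 0 in every tumor-draining and every healthy library. It did not pass the count filter and was not tested. Il17f, the close relative of Il17a, had 4, 3, 3 and 6 counts in agonist replicates, against 28, 14, 7 and 1 in tumor-draining replicates and 17, 18, 10 and 5 in healthy replicates. The sums were 16, 50 and 50 counts, and the tumor-draining values spread from 1 to 28. Il17f was tested and did not pass in agonist libraries against tumor-draining (log2 fold change -1.59, adjusted p = 0.431, edgeR) or healthy libraries (adjusted p = 0.284, edgeR), and in replicate 4 the agonist count was the highest of the 3 groups.

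The variable gene Trdv4 had 62, 27 and 137 summed counts in agonist, tumor-draining and healthy libraries, of which healthy replicate 3 alone held 85. Tcrg-V7 had 0 counts in all 12 libraries.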
